A study of Mus musculus with 53 samples.

Results

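IL-4 given for 3 h to wild-type (WT) bone marrow-derived macrophages (BMDMs) was compared with time-matched control cells in 8 RNA-seq libraries, 4 with IL-4 and 4 without. The members described here were the loci that reached 1 FPKM in any of these 8 libraries, and 10722 of the 23847 loci in the tables met that rule. FPKM is a count of sequenced fragments divided by transcript length and by the library's mapped fragments, so levels are relative to all other RNA of the same cells. Marrow came from mice 8 to 12 weeks old and was cultured for 6 days with L929 supernatant, a source of M-CSF. IL-4 was then added at 20 ng/ml for 3 h, whereas the control cells of the same age and genotype stayed without it for the same time. Cells of Stat6-/- mice, which lack functional STAT6, received the same treatment with 2 IL-4 and 2 control libraries. The whole study held 53 libraries in 18 groups by genotype, IL-4 and time (0, 1, 3, 6 and 24 h). All mice had the C57BL/6 background, the Stat6 deletion was present in the whole body, and the study describes the WT samples as individual animals.

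IL-4 is a cytokine of type 2 immunity. It binds the IL-4 receptor α chain, which pairs with the common γ chain or the IL-13 receptor α1 chain, and the receptor-bound Janus kinases phosphorylate STAT6. Phosphorylated STAT6 forms dimers, enters the nucleus and binds DNA at palindromic TTC-GAA sites. In macrophages the pathway is known for alternative polarization, a program of arginase, lectin, resistin-like and chitinase-like genes that serves the response to helminths and tissue repair, and SOCS proteins are its classical feedback inhibitors.

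The libraries carried the markers of macrophages. Csf1r, the M-CSF receptor, averaged 861 FPKM in the controls and 892 FPKM with IL-4, and Emr1 (F4/80) averaged 689 and 716 FPKM. The other 9 genes of the 12-gene identity list, Lyz2 aside, had log2 differences below 0, among them Mertk, a receptor for apoptotic cells, at -0.54 (limma adjusted p 0.00187, under 2-fold), and Cd14 at -1.32 was the only call. The median of the list was -0.12. The neutrophil list summed to 374 to 511 FPKM in the controls and 400 to 507 FPKM with IL-4, led by S100a8 and S100a9, and 0 of its 11 tested genes were called in either direction. The single testable marker of T and NK cells was Cd4, at 5.39 FPKM in the controls and 3.38 FPKM with IL-4, and 9 others in the tables, Cd3e among them, stayed under 1 FPKM in every library of the study. In bulk RNA, fewer cells of a type and less RNA per cell cannot be told apart. Libraries differed in relative depth between 0.720 and 1.54, without a difference between the groups (exact permutation test, two-sided, p = 0.771, smallest possible 0.0286), and each held 10294 to 10356 loci at 1 FPKM or more. 1 control library listed Lyz2 at 0 while the other 3 read 20577 to 26961 FPKM and the IL-4 libraries read 15448 to 21946 FPKM, so no change of Lyz2 was read.

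IL-4 changed 433 loci by at least 2-fold at 3 h, which is 3.88% of the 11146 loci tested, and more increases than decreases were called. A locus was called when limma's test on log2(FPKM + 1) gave an adjusted p under 0.05 and the log2 difference between the groups reached 1, a scale that understates the change of loci near 0 FPKM. Of the called loci, 291 were higher (2.61% of those tested) and 142 were lower (1.27%). Without the fold threshold, 1825 loci passed in the upward and 1395 in the downward direction. A log2 difference of 3 or more was reached by 25 of the higher loci and by 2 of the lower loci, and 12 higher loci reached 4 whereas no lower locus did. The 4 IL-4 libraries all lay beyond the 4 control libraries for 289 of the 291 higher and for 142 of the 142 lower loci. Over all loci tested, 38.9% were separated in either direction. The calls were made from these same libraries, so the separation of the called loci follows largely from their choice and is no further support.

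Induced and repressed loci began from different levels. The median control level was 5.95 FPKM for the higher loci, which reached a median of 22 FPKM with IL-4, and 19.5 FPKM for the lower loci, which ended at a median of 6.47 FPKM. The higher loci together took 1.08% to 1.15% of all FPKM in a control library and 3.60% to 3.83% in an IL-4 library. The lower loci took 1.44% to 1.57% and 0.529% to 0.612%. Protein-coding genes made up 285 of the higher and 138 of the lower loci. Among the called loci, 14 averaged under 0.5 FPKM in the controls and at least 5 FPKM with IL-4. They include Snora17, whose IL-4 libraries spread from 0 in 1 library up to 108 FPKM. In the other direction, 0 called loci went from at least 5 FPKM to under 1 FPKM. Within the called loci, induction from near 0 was thus seen, and loss to near 0 of a locus that began at 5 FPKM or more was not. Loci that were not called were not counted here.

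**Figure D1:**
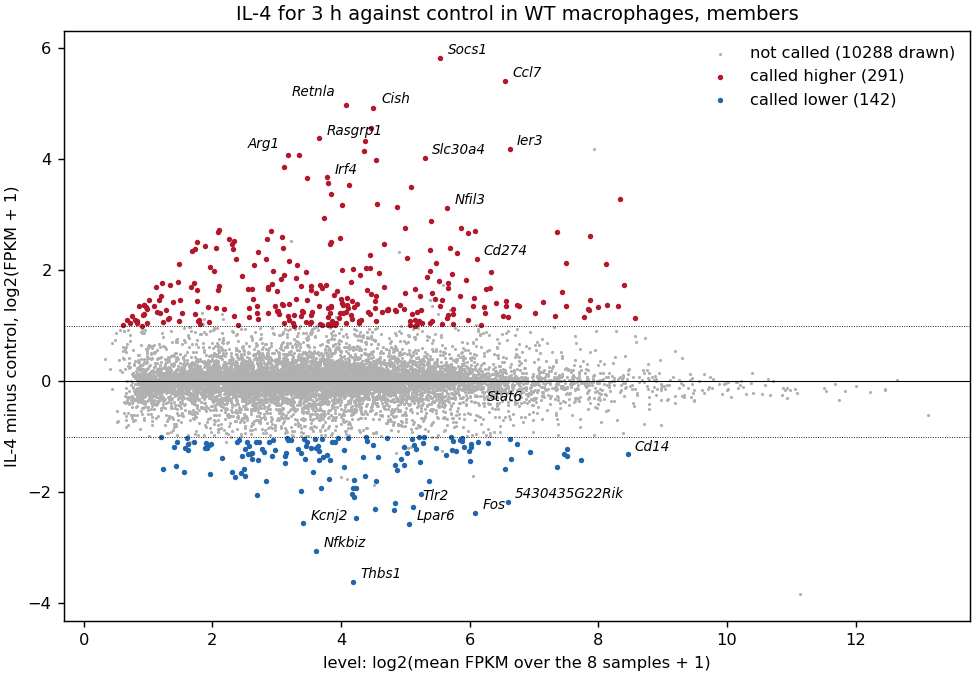
Log2 difference between IL-4 and control at 3 h in WT macrophages (vertical axis) against the mean level over the 8 libraries in FPKM (horizontal axis, log scale), 1 point per locus. The 291 called higher loci lie above 1 and the 142 called lower loci below -1. The largest called increases reach beyond 4, the largest called decrease is Thbs1 at -3.61, and Lyz2 is not drawn.

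Socs1, a feedback inhibitor of Janus kinases, had the largest called increase on the log2(FPKM + 1) scale, a rank that depends on that scale. Its 4 control libraries read 0.523, 0.749, 0.547 and 0.639 FPKM and its IL-4 libraries 91.4, 90.4, 102 and 79.4 FPKM. The ratio of the means was 148-fold (log2 5.83, SE 0.26, limma adjusted p 1.47e-20), and the lowest IL-4 library lay far above the highest control. Cish, another member of the SOCS family, read 0.317, 0.355, 0.392 and 0.592 FPKM without and 44.6, 31, 42.8 and 52.0 FPKM with IL-4 (103-fold, log2 4.93, SE 0.14, adjusted p 3.97e-27). Both inhibitors were thus under 1 FPKM in every control library and above 30 FPKM in every IL-4 library. Retnla, which encodes the secreted protein RELMα of alternatively activated macrophages, was listed at 0 in all 4 control libraries and at 24.0, 25.4, 32.7 and 44.3 FPKM with IL-4 (SE 0.29 on a log2 difference of 4.99, adjusted p 1.9e-17). Arg1, the arginase that turns arginine into ornithine, was likewise listed at 0 in the controls and read 17, 19.6, 13.7 and 13.8 FPKM with IL-4 (log2 4.07, SE 0.16, adjusted p 3.71e-22). No fold is given for these last genes because their control level is 0.

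Ccl7, a chemokine that recruits monocytes, read 3.61, 7.69, 1.44 and 1.49 FPKM in the controls and 188, 306, 118 and 118 FPKM with IL-4. The groups did not overlap and the means differed 51.3-fold, but the spread was the widest of the 12 largest increases (log2 5.42, SE 1.26, adjusted p 0.000757). The smallest SE of the 12 was that of Pdcd1lg2, the ligand PD-L2 of the T cell inhibitory receptor PD-1. Its controls held 0.116, 0.137, 0.0932 and 0.199 FPKM, and its IL-4 libraries held 17.5, 16.2, 16.9 and 22.7 FPKM (134-fold, log2 4.08, SE 0.08, adjusted p 6.66e-33). Rasgrp1, an exchange factor for Ras, went from 0.164, 0.215, 0.127 and 0.12 FPKM to 23.9, 23.3, 22 and 23.1 FPKM (147-fold, log2 4.38, SE 0.20, adjusted p 2.05e-20). Il4i1, a secreted amino acid oxidase named for its induction by IL-4, held 0.789 to 1.36 FPKM in the controls and 28.5 to 46.3 FPKM with IL-4 (32.6-fold), and its locus overlaps Nup62-il4i1 and Tbc1d17, whose reads an unstranded library cannot tell apart from its own. Ier3, an immediate early gene linked to cell survival, rose from 6.93 to 11.8 FPKM in the controls to 148 to 209 FPKM (20.0-fold). Serpina3g, a serine protease inhibitor, rose 54.9-fold to between 33.3 and 50.3 FPKM, with 15.5% of its 50-base stretches shared with related serpin genes. The transmembrane protein gene Tmem26 rose 40.3-fold, and the zinc transporter gene Slc30a4 rose 20.7-fold to between 68.8 and 79.0 FPKM. The groups overlapped for none of these 12 genes, as the rule that chose them required.

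The RefSeq promoters (GRCm38.p6, 250 bases before to 50 after the start) of the 12 largest increases were searched for STAT palindromes. These were TTCNNNNGAA, with a 4-base spacer, and TTCNNNGAA, with a 3-base spacer, both of which read the same on either strand. By symbol, 10 of the 12 genes matched a promoter. The 3 with the 4-base spacer are shown first and the 3 with the 3-base spacer after them, as 60 bases of the gene's own strand each, 5′ to 3′, with the palindromes in capitals. Retnla is chr16:48842439-48842498 (plus strand), Tmem26 chr10:68723496-68723555 (plus), Pdcd1lg2 chr19:29410812-29410871 (plus), Cish chr9:107296633-107296692 (plus), Serpina3g chr12:104236088-104236147 (plus) and Rasgrp1 chr2:117342964-117343023 (minus).
Retnla: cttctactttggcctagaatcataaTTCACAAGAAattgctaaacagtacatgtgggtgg
Tmem26: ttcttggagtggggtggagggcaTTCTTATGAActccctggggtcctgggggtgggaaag
Pdcd1lg2: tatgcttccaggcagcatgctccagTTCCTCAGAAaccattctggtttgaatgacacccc
Cish: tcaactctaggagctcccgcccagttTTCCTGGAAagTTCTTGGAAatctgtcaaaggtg
Serpina3g: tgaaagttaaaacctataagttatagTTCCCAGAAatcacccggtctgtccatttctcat
Rasgrp1: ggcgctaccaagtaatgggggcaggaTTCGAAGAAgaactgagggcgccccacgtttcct
The palindrome began 145 bases before the annotated start in Retnla, 82 in Pdcd1lg2, 33 in Serpina3g and 120 in Rasgrp1. Tmem26 held 2 of the 4-base palindromes in its 300 bases, and Cish held 2 of the 3-base kind side by side at its start. The windows of Socs1, Ier3, Il4i1 and Slc30a4 held neither.

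The same letters were counted over all called loci, with no test. TTCNNNNGAA stood in 22 of the 222 higher genes with a matched promoter (9.91%), in 3 of 105 lower genes (2.86%), in 563 of 8504 matched members (6.62%) and in 8.01% of all 27025 genes of the promoter table. TTCNNNGAA stood in 8.56% of the higher, 10.5% of the lower and 8.17% of the matched members, against 9.55% of all genes of the table. The cyclic AMP element TGACGTCA stood in 3.15%, 1.9% and 3.76% of these sets and in 2.03% of all genes of the table. The κB site, searched on both strands, stood in 15.8% of the higher, 17.1% of the lower and 12.0% of the matched members, against 9.55% of all genes of the table. Such matches describe letters in a 300-base window and are not binding sites.

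Thbs1, which encodes the matrix protein thrombospondin 1, an activator of latent TGF-β, had the largest called decrease. Its control libraries read 33.3, 34.8, 29.3 and 33.3 FPKM and its IL-4 libraries 1.97, 1.82, 1.66 and 1.59 FPKM (18.6-fold lower, log2 -3.61, SE 0.19, limma adjusted p 9.68e-19). It was also the only gene called between the WT controls at 3 h and at 0 h, from 13.2 ± 2.44 FPKM (SD, n = 4) at 0 h to 32.7 FPKM at 3 h without IL-4 (log2 1.25, SE 0.19, adjusted p 0.000814). With the replicate number as a block, Il1b was called in that comparison too (log2 1.34, adjusted p 0.000164). Thbs1 with IL-4 therefore lay below both control times, and the comparisons share the 3 h controls. Nfkbiz encodes IκBζ, a nuclear cofactor of NF-κB that is needed for some secondary inflammatory genes. It fell 12.8-fold, from 23.5, 20.9, 19.8 and 19.5 FPKM to 1.75, 1.46, 1.58 and 1.77 FPKM (log2 -3.05, SE 0.39, adjusted p 5.41e-08). For both genes the highest IL-4 library was more than 10 FPKM below the lowest control.

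Lpar6, a lysophosphatidic acid receptor that lies inside the Rb1 locus, read 56.3, 56.6, 57.8 and 53.9 FPKM without and 9.05, 8.32, 8.84 and 8.39 FPKM with IL-4 (log2 -2.57, SE 0.09, adjusted p 1.75e-23). Kcnj2, an inward rectifier potassium channel, fell from 16.3 to 18.5 FPKM in the controls to 1.75 to 2.47 FPKM (log2 -2.56). Fos, the AP-1 subunit, read 115, 126, 112 and 99.0 FPKM without and 24.5, 22.6, 17.8 and 19.5 FPKM with IL-4 (log2 -2.37, SE 0.17, adjusted p 1.14e-14). Dusp1, a phosphatase that switches off MAP kinases, fell from 33.0 to 59.7 FPKM to 6.73 to 10.7 FPKM (log2 -2.31). Tlr2, the receptor for bacterial lipoproteins, fell from 43.8 to 69.4 FPKM to 8.55 to 12.2 FPKM (log2 -2.27, SE 0.16, adjusted p 9.7e-15). Lhfpl2 fell by 2.19, 5430435G22Rik (now Rab7b, a small GTPase of late endosomes) fell by 2.17 and Sgk1, a serum- and glucocorticoid-induced kinase, fell by 2.09 on the log2 scale. Slc40a1, the iron exporter ferroportin, differed among the controls (22.3, 21.5, 43.1 and 64.3 FPKM) and read 4.79 to 7.93 FPKM with IL-4 (log2 -2.30, SE 0.84, adjusted p 0.0349). The call of Slc40a1 was lost without IL-4 replicate 1 or 2 or control replicate 3 or 4 (adjusted p 0.0737 to 0.109) in the unpaired fit and was kept with the replicate block (4.24e-12), whereas the other 11 of the 12 largest decreases kept their call without any single library.

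F630028O10Rik completed the 12 decreases, with 28.2, 29.3, 32.9 and 32.2 FPKM without and 4.89, 5.22, 4.81 and 4.17 FPKM with IL-4 (log2 -2.46, SE 0.13, adjusted p 8.39e-19). Its locus on chromosome X (96239926 to 96243642, mm10) holds the hairpin of miR-223 (chrX:96242817-96242926), a microRNA of myeloid cells, so the transcript measured here spans that precursor. Mrc1, the mannose receptor CD206, rose from 104 to 449 FPKM (log2 2.12), and its locus on chromosome 2 holds the hairpin of miR-511. The mature sequences are given because the host transcripts moved in opposite directions, with the seed (bases 2 to 8) in capitals, from RefSeq.
miR-223-3p: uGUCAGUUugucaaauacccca
miR-223-5p: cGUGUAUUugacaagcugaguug
miR-511-3p: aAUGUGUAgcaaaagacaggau
The 3 seeds differ from each other. A miRNA hairpin lay in at least 13 of the 291 higher loci, in at least 9 of the 142 lower loci and in 409 of the 10722 members. The search of the called loci left out a part of the genome that the count of members included. The shares of these sets can therefore not be compared. The mature miRNAs themselves were not measured in these libraries of polyadenylated RNA.

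**Figure D2:**
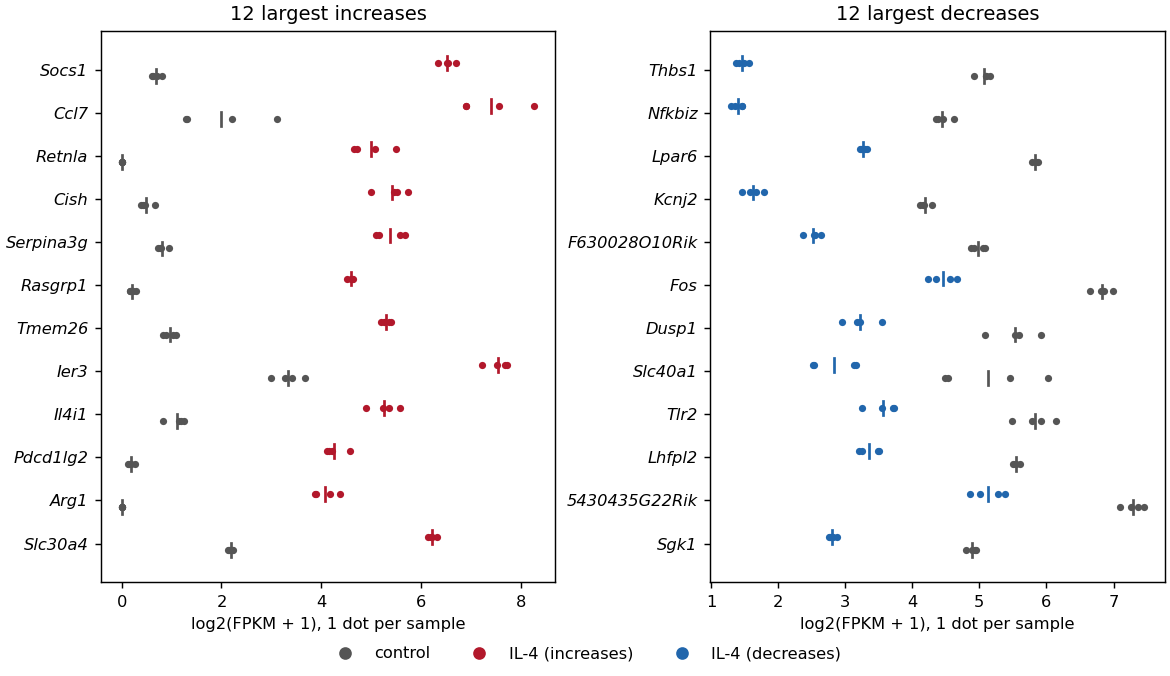
FPKM of the 12 largest increases and the 12 largest decreases at 3 h, 1 dot per library, with controls and IL-4 in different colours on a log axis. No gene shows an overlap between the 4 control and the 4 IL-4 libraries, and Ccl7 and Slc40a1 have the widest spread within a group.

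Of the receptor and JAK-STAT genes, 2 of 17 tested were called, both higher. Jak2, a receptor-associated kinase, rose from 11.0 to 38.1 FPKM (log2 1.70, SE 0.10, limma adjusted p 1.56e-17), and Il4ra, the ligand-binding receptor chain itself, rose from 20.3 to 63.1 FPKM (log2 1.59, SE 0.24, adjusted p 8.95e-07). Il2rg, which encodes the common γ chain, averaged 176 and 165 FPKM and was not called. Stat6 read 76.7 to 83.7 FPKM in the controls and 58.7 to 62.5 FPKM with IL-4, a log2 difference of -0.42 (SE 0.08, adjusted p 7.63e-05) that passed the test but stayed under 2-fold, and its locus overlaps Nab2. The median of the list was 0.02, near the 0.01 of all loci tested. Among the 8 SOCS genes, 4 rose and none fell, with a median of 0.71. Besides Socs1 and Cish these were Socs2 (log2 2.73, up to a mean of 6.46 FPKM) and Socs5 (log2 1.08, 8.25 to 18.6 FPKM). Socs3, the main brake on STAT3 signals, averaged 1.5 FPKM without and 1.31 FPKM with IL-4 and was not called.

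The alternative polarization markers were the list with the highest share of calls, 18 higher and 0 lower of 26 tested, with a median of 2.12 over its 23 members. These markers are known IL-4 targets, so the list was not chosen independently of what it measures here. Besides Retnla and Arg1, the lectin receptor gene Mgl2 rose from 1.52 to 25.1 FPKM (log2 3.38, SE 0.35, adjusted p 4.4e-10). About 13.1% of the 50-base stretches of Mgl2 also occur in transcripts of other genes, most often its neighbour Clec10a. Clec10a rose as well, from 26.3 to 94.7 FPKM (log2 1.83). Clec7a, the β-glucan receptor Dectin-1, rose from 66.5 to 295 FPKM (log2 2.14). Egr2, a zinc finger factor, rose from 4.63 to 61.4 FPKM (log2 3.50) and Flt1, a VEGF receptor, from 0.488 to 7.59 FPKM (log2 2.53). Ccl17, Ccl22 and Ear11 were at or under 1.98 FPKM with IL-4 and were not called. Ear11 (0 to 0.968 FPKM, log2 0.93, adjusted p 6.58e-06) and Ccl17 (0 to 0.318 FPKM, log2 0.38, adjusted p 0.000205) passed the test but stayed under the fold threshold. Ccl22 did not pass (1.15 to 1.98 FPKM, log2 0.45, adjusted p 0.0981). Chi3l3 (Ym1) rose from 20.6 to 44.8 FPKM (log2 1.08). Tgm2, the transglutaminase often used as a marker, averaged 15.2 and 9.02 FPKM (log2 -0.68) and was not called.

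Transcription factors moved in both directions. Of the macrophage lineage and IRF factors, 5 of 26 rose and none fell (median 0.11). Irf4, a factor of alternative polarization, rose from 0.998 to 24.6 FPKM (log2 3.68, SE 0.13, adjusted p 1.06e-23), Nfil3 from 9.32 to 89.4 FPKM (log2 3.13) and the repressor gene Etv3 from 41.5 to 106 FPKM (log2 1.33). Of the AP-1, EGR and immediate early genes, 5 of 25 rose and 2 fell (median 0.30). Batf3 rose from 4.97 to 51.7 FPKM (log2 3.14, SE 0.18, adjusted p 1.27e-17) and Myc from 6.49 to 22.2 FPKM (log2 1.63), while Fos fell and Nr4a1 fell by 1.65 on the log2 scale. Jun and Junb, the partners of Fos, averaged 28.3 and 28.1 FPKM without and 36.0 and 34.4 FPKM with IL-4 and were not called. Among KLF, TGIF and SMAD factors, Klf4 rose from 2.77 to 15.1 FPKM (log2 2.10) whereas Tgif1, Klf10 and Klf2 fell by 1.2, 1.09 and 1.06 (1 higher and 3 lower of 19, median -0.08). Klf2 dropped under the 2-fold threshold without IL-4 replicate 2 or control replicate 3 (-0.90 and -0.98). Of the TGF-β list, Id1 rose and Thbs1 and Id3 fell, 1 and 2 of 16 tested. Id1 and Id3, a pair of inhibitors of helix-loop-helix factors, thus moved in opposite directions, Id1 by 1.24 and Id3 by -1.57.

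All 7 calls among Toll-like receptor, adaptor, cytokine and inflammasome genes were decreases. Of 24 Toll-like receptor and adaptor genes, 4 fell and none rose, with a median of -0.24. Beside Tlr2 these were Tlr13 (139 to 46.4 FPKM, log2 -1.58), Cd14, the LPS coreceptor (501 to 200 FPKM, log2 -1.32), and Clec4e, the receptor Mincle (42.7 to 13.5 FPKM, log2 -1.59). Tlr4, the LPS receptor, averaged 25.2 and 34.2 FPKM (log2 0.42) and was not called, and Myd88 was not called either (log2 -0.17). Of 20 cytokine and inflammasome genes, 3 fell and none rose (median -0.19). Tnf fell from 19.8 to 6.77 FPKM (log2 -1.42, SE 0.13, adjusted p 1.06e-11), Il1b from 28.6 to 6.83 FPKM (log2 -1.92, SE 0.61, adjusted p 0.0139) and Tnfsf9 from 4.40 to 1.47 FPKM (log2 -1.13). Of 24 NF-κB genes, Nfkbiz fell and Rel, the subunit c-Rel, rose from 4.81 to 15.3 FPKM (log2 1.47), while the remaining 22 were not called (median -0.05). Of 28 type I interferon-stimulated genes only Gbp5 was called (log2 1.26, adjusted p 0.0197), a call that was lost without IL-4 replicate 4 or control replicate 2 (adjusted p 0.0702 and 0.0551) although the replicate block gave 5.48e-09, and the median was -0.04. This share of calls is near the 3.88% of all loci tested. The SEs of this list were wide in the unpaired fit, from 0.29 (Gbp7) to 0.92 (Ifi44). Rsad2 (log2 -1.19, SE 0.64) and Zbp1 (log2 0.64, SE 0.64) were not called, so a missing call here does not show a missing change. Among the MAPK brakes, Dusp4 rose from 7.14 to 54.3 FPKM (log2 2.76), whereas Dusp1 and Spry2 fell, 1 and 2 of 15 genes.

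Chemokines split evenly, with 3 called higher and 3 lower of 20 (median -0.06). Ccl2, the monocyte attractant, read 14.9, 26.1, 8.74 and 8.28 FPKM without and 101, 160, 70.6 and 68.1 FPKM with IL-4 (log2 2.76, SE 1.03, adjusted p 0.0397). The groups of Ccl2 did not overlap, but its call was lost when any of the 8 libraries other than control replicate 2 was left out of the unpaired fit (log2 2.5 to 2.91, adjusted p 0.0536 to 0.102). Within replicate numbers Ccl2 was higher by 6.78, 6.12, 8.07 and 8.23-fold, and the fit with the replicate block gave an adjusted p of 4.13e-07. Ccl24 (eotaxin-2) rose from 0.479 to 7.41 FPKM (log2 2.48). Cxcl10, an interferon-induced chemokine, fell from 28.1 to 5.95 FPKM (log2 -2.04), and Cxcl2 and Ccl3 fell by 1.38 and 1.01. Of 15 chemokine and chemoattractant receptors, 3 fell and none rose, and the median was -0.65, farther from the 0.01 of all loci tested than that of any other list with a negative median. Cxcr4, the receptor of CXCL12, fell from 59.6 to 13.9 FPKM (log2 -2.03), C5ar1, the complement C5a receptor, from 252 to 101 FPKM (log2 -1.31), and Cx3cr1, the fractalkine receptor, from 6.88 to 1.32 FPKM (log2 -1.73, adjusted p 0.0179). The call of Cx3cr1 was lost without IL-4 replicate 4 or control replicate 1 (adjusted p 0.0508 and 0.0563) in the unpaired fit, and the replicate block gave 1.71e-07.

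Lipid, metabolic and costimulatory genes held further calls. Of 28 lipid genes, Ch25h, which makes 25-hydroxycholesterol, rose from 1.14 to 24.7 FPKM (log2 3.58) and Ptgs1 (cyclooxygenase 1) from 2.22 to 28.2 FPKM (log2 3.18). In the same list, Abca1, the cholesterol exporter, fell from 23.6 to 7.49 FPKM (log2 -1.53), as did the LXRα gene Nr1h3, from 16.4 to 7.59 FPKM (log2 -1.03), which likewise dropped under 2-fold without IL-4 replicate 2 or control replicate 1 (-0.93 and -0.97). Sqle, an enzyme of sterol synthesis, was not called (log2 -0.02). Of 22 lysophospholipid and purinergic receptors, P2ry1 (log2 1.75) and Gpr183 (log2 1.3), a receptor for oxysterols, rose, while Lpar6, the platelet-activating factor receptor gene Ptafr (log2 -1.79) and the sphingosine 1-phosphate receptor gene S1pr1 (log2 -1.75) fell. All 5 calls among 16 costimulation and antigen presentation genes were increases. Cd274 (PD-L1) rose from 23.6 to 112 FPKM (log2 2.21), Cd40 from 12.5 to 68.5 FPKM (log2 2.36) and Cd86 from 11.6 to 25.1 FPKM (log2 1.06), whereas Cd80 averaged 4.69 and 3.80 FPKM and was not called. The class II gene H2-Ab1 averaged 213 and 217 FPKM and its regulator Ciita 5.06 and 6.12 FPKM, neither called. Among 31 growth, survival and metabolic genes 7 rose and 2 fell (median 0.48). Slc7a2, a transporter of arginine, rose 137-fold from 0.111 to 15.2 FPKM, while Vegfa (log2 -2.04) and Pdgfb (log2 -1.35), growth factors for vessels, fell. Other genes of these families did not fall. Pdgfa of the same list had a log2 difference of 0.96 and was not called. Outside the list, Vegfc (log2 1.79) and Pdgfc (log2 1.23) were called higher.

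Lists of other cell types gave few calls. Batf3, 1 of 3 testable dendritic cell markers, and Pecam1, 1 of 2 testable stromal and endothelial markers, were called higher. The dendritic list summed to 9.68 to 11.9 FPKM in the controls and 48.4 to 67.1 FPKM with IL-4, of which Batf3 alone averaged 4.97 and 51.7 FPKM. Itgax (CD11c) was not called (log2 0.56) and Siglech averaged under 0.3 FPKM, while the other 5 dendritic markers, such as Flt3 and Zbtb46, were under 1 FPKM throughout. The stromal and endothelial list summed to 1.27 to 2.17 FPKM and 5.89 to 11.3 FPKM, of which Pecam1 alone averaged 0.816 and 7.54 FPKM. Acta2 averaged 0.464 and 0.532 FPKM, and the other 9 markers, such as Col1a1 and Cdh5, were under 1 FPKM throughout. No marker of B cells (2 tested) or of mast cells, basophils and eosinophils (4 tested) was called. The part of other cell types in these increases was not tested.

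**Figure D3:**
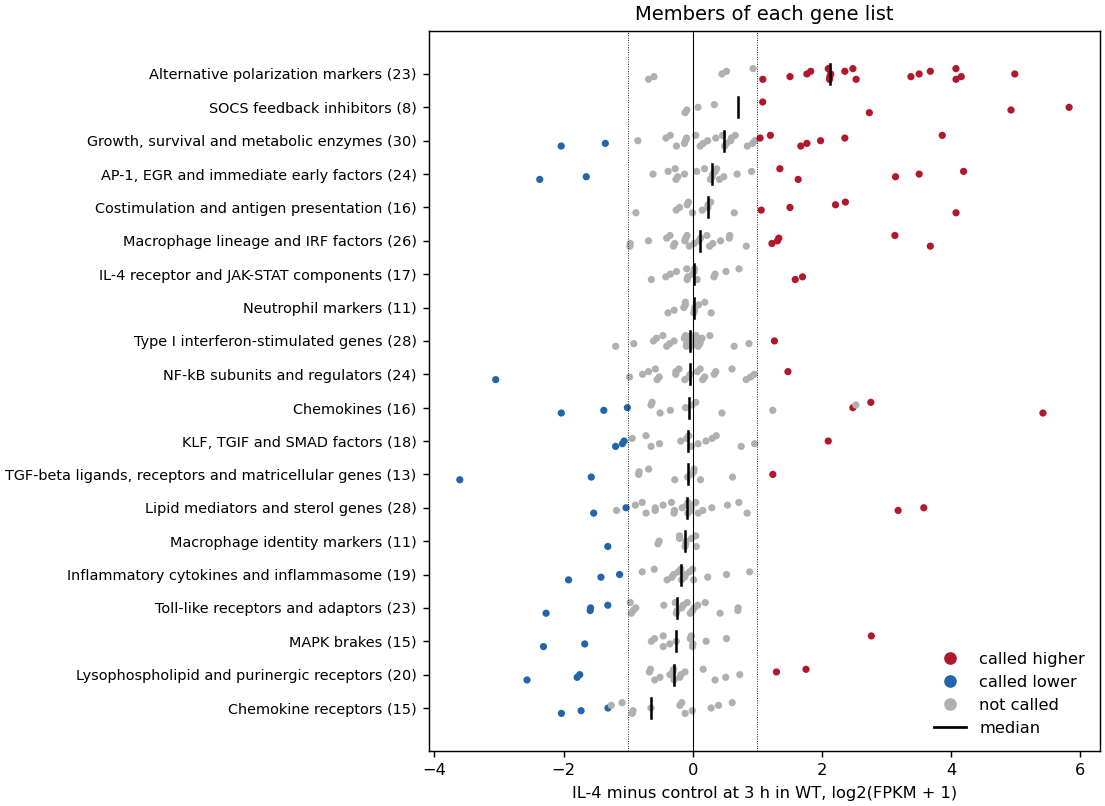
Log2 difference between IL-4 and control at 3 h for the members of 20 gene lists with at least 8 members, 1 point per gene, with called genes in colour and the median of each list marked. The alternative polarization markers have the highest median, 2.12, and the chemokine and chemoattractant receptors the lowest, -0.65, while the median of all loci tested is 0.01. Lyz2 is not drawn.

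Of 7925 pairs of neighbouring members less than 100 kb apart, 36 pairs had both genes called and 441 had 1 gene called. In 34 of the 36 pairs the genes moved in the same direction, 28 upward and 6 downward, where 291 of all 433 called loci were higher. The pairs include Serpina3f and Serpina3g, whose loci overlap, so their reads are not independent. No test of the shared direction was made. Cd274 and Pdcd1lg2, the ligands of PD-1, lie 22824 bases apart on chromosome 19 and both rose. Ccl2 and Ccl7 lie 8259 bases apart on chromosome 11, and Mapkapk3 rose by 1.15 beside Cish at a distance of 6811 bases. Csrnp1 and Cx3cr1 moved in opposite directions, by 1.63 and -1.73, as did Osbpl3 and Dfna5, by 1.91 and -1.39.

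The response at 3 h differed in size from that at 1 h for 180 loci (1.61% of those tested, 120 in the positive and 60 in the negative direction). Of the 291 higher loci, 108 had a larger response at 3 h than at 1 h and 1 had a smaller response, and of the 142 lower loci 42 had a larger fall and 1 a smaller fall. By call alone, 89 of the higher and 27 of the lower loci were also called at 1 h in the same direction. Retnla went from a log2 response of 0.50 at 1 h to 4.99 at 3 h (difference 4.49, SE 0.40, limma adjusted p 7.95e-11), and Il4i1 from 1.06 to 4.16 (difference 3.09, SE 0.32, adjusted p 1.77e-09). Pdcd1lg2 went from 1.18 to 4.08 (difference 2.90, SE 0.11, adjusted p 5.69e-22) and St7 (suppression of tumorigenicity 7) from -0.14 to 2.59 (difference 2.72, SE 0.28, adjusted p 2.71e-09). Thbs1 fell by 0.48 at 1 h and by 3.61 at 3 h (difference -3.13, SE 0.27, adjusted p 1.7e-11). Tlr2 fell by 0.69 at 1 h and fell by 2.27 at 3 h (difference -1.58, SE 0.23, adjusted p 2.75e-06), and Arhgap22 and Gpr162 had differences of -1.79 and -1.62. Each time point had control libraries of its own.

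Few responses at 3 h differed from those at 6 h, and 50 loci passed that test (0.449%, 26 positive and 24 negative). Of the higher loci, 15 had a larger and 5 a smaller response at 6 h, and of the lower loci 5 fell further and 1 less. Retnla rose further to 8.10 (difference 3.11, SE 0.40, adjusted p 2.13e-06), but with a pseudocount of 0.1 that difference was 2.44 and did not pass (adjusted p 0.336). Larger responses at 6 h were also found for Arg1, from 4.07 to 5.98 (difference 1.91, SE 0.23, adjusted p 7.24e-07), and for Flt1, from 2.53 to 4.27 (difference 1.74, SE 0.24, adjusted p 4.59e-06). Mgl2 went from 3.38 to 5.16 (adjusted p 0.0356), a difference that was lost without IL-4 replicate 1 or 2 or control replicate 3 or 4 at 3 h (adjusted p 0.0678 to 0.0930). Cd14 fell from -1.32 to -3.08 (difference -1.77, SE 0.47, adjusted p 0.0224, and 0.0540 or 0.0571 without IL-4 replicate 1 or control replicate 4) and Fcrl1, an Fc receptor-like gene, from -1.17 to -2.36 (difference -1.19, SE 0.10, adjusted p 2.21e-11). In contrast, Tes, a focal adhesion gene, had responses of 1.64, 2.40 and 1.04 at 1, 3 and 6 h (6 h minus 3 h -1.36, adjusted p 2.95e-05), and Ldlrad3 of 0.01, 1.56 and 0.32 (6 h minus 3 h -1.24, adjusted p 0.0288). The difference of Ldlrad3 was lost without IL-4 replicate 1 or 2 or control replicate 2 (adjusted p 0.0554 to 0.0785). By call alone, 237 of the higher and 104 of the lower loci were also called at 6 h, and 94 and 51 at 24 h in the same direction. At 24 h, 6 of the higher and 3 of the lower loci were called in the opposite direction, and 37 higher and 21 lower loci were called at 3 h alone.

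The genomic span of the higher loci is described here by whether they were also called at 1 h, with no test over the loci. The span of a locus is the distance from its start to its end in the tables, introns included. Of the 227 higher loci up to 100 kb long, 88 were also called at 1 h (38.8%), and of the 64 longer loci 1 was (1.56%). That single long locus was Bcar3, a signalling adaptor gene, with a span of 110 kb and a 1 h response of 1.06. By bins, 34 of 72 loci up to 10 kb (47.2%), 30 of 82 from 10 to 30 kb (36.6%) and 24 of 73 from 30 to 100 kb (32.9%) were called at 1 h, and the median 1 h responses were 1.00, 0.81, 0.70 and, above 100 kb, 0.19. At 3 h the median of the longest bin was 1.33, and 39 of its 64 loci had a larger response at 3 h than at 1 h by the test of the difference. St7 (194 kb), Flt1 (164 kb) and Ldlrad3 (236 kb) had 1 h responses of -0.14, 0.24 and 0.01 and 3 h responses of 2.59, 2.53 and 1.56. Fyn, a Src family kinase gene of 196 kb, had 0.01 and 2.14, and Mrc1, of 103 kb, had 0.63 and 2.12. The shorter Socs1 and Cish were both called at 1 h. Higher loci called at 1 h too had a median span of 13.5 kb, those not called at 1 h 40.6 kb, and all loci tested 20.2 kb.

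Lower loci showed the same order of spans, with medians of 4.81 kb for those also called at 1 h and 38.0 kb for the others. Of 27 lower loci longer than 100 kb, 2 were called at 1 h, against 25 of 115 shorter ones. The median 1 h response of the long lower loci was -0.07 and that of the shorter ones -0.53, while their medians at 3 h were -1.26 and -1.27. The 2 long loci called at 1 h were Sgk1 (118 kb, 1 h response -1.82) and Lhfpl2 (138 kb, -1.66), whereas Abca1 (129 kb) and Arhgap22 (153 kb) had 1 h responses of -0.003 and -0.13. Why spans differed was not tested. Counts of calls also depend on the fold threshold. Without it, 16 of the 64 long higher loci (25%) and 164 of the 227 shorter ones (72.2%) passed at 1 h.

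**Figure D4:**
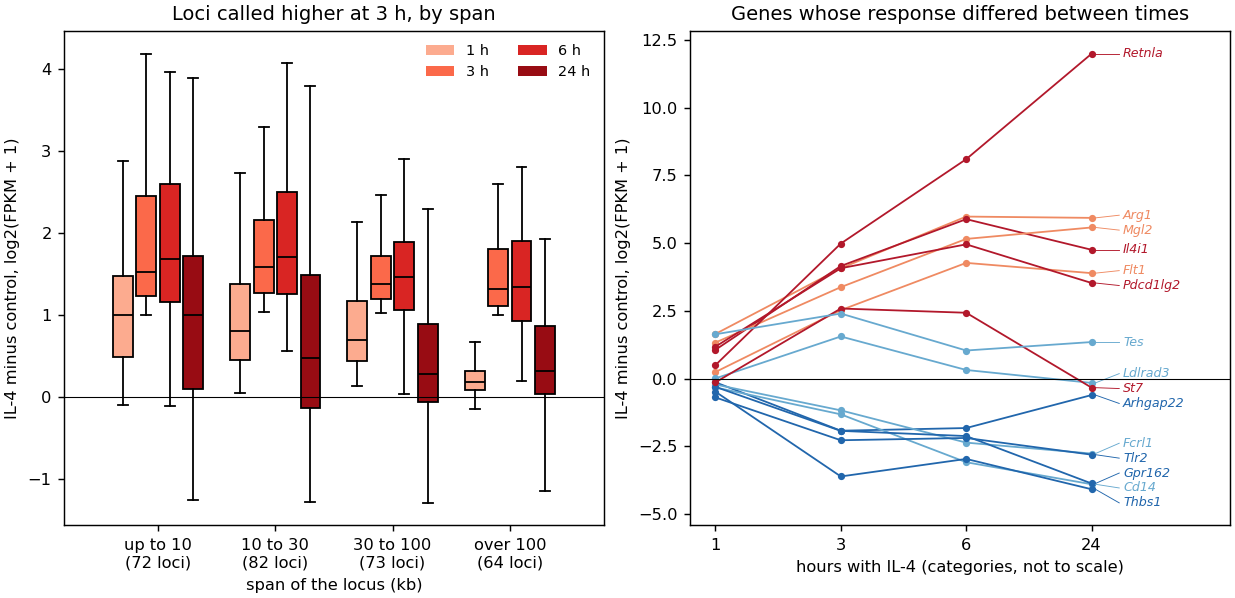
Left, log2 response to IL-4 at 1, 3, 6 and 24 h of the 291 loci called higher at 3 h, as boxes by genomic span (up to 10, 10 to 30, 30 to 100 and over 100 kb). Right, responses over the same times of the named genes with the largest differences to 1 h or 6 h. At 1 h the medians go from 1.00 in the shortest to 0.19 in the longest bin, and Retnla climbs from 0.50 at 1 h to 11.99 at 24 h.

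In Stat6-/- macrophages, no locus was called at 3 h by limma, 131 loci had an unadjusted p under 0.05 and the smallest adjusted p was 0.589. With the replicate number as a block 1 locus was called, Gbp5, a guanylate-binding protein gene induced by interferon (log2 1.35, adjusted p 0.00163). That block assumes that the Stat6-/- replicate numbers pair the samples, which no source used here states. The deletion was visible at the Stat6 locus, where RNA read 17 and 22.5 FPKM in the Stat6-/- controls against 76.7 to 83.7 FPKM in the WT controls. Whether the remaining reads came from Stat6 or from Nab2, which overlaps it, was not tested. The difference between the genotypes was tested directly. That difference was called for 388 loci (3.48% of those tested), 270 with a larger log2 response in WT and 118 with a lower one. It was called for 247 of the 291 higher and 101 of the 142 lower loci, and for none of either set in the other direction, a choice of loci that already used the WT values. The median Stat6-/- response was 0.03 over the higher and -0.05 over the lower loci.

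Socs1 read 0.484 and 1.45 FPKM in the Stat6-/- controls and 0.538 and 5.15 FPKM with IL-4, and the WT response exceeded that of Stat6-/- cells by 5.13 on the log2 scale (SE 0.46, limma adjusted p 3.2e-11). Retnla stayed at or under 0.632 FPKM in all 4 Stat6-/- libraries (difference 4.46, SE 0.50, adjusted p 6.9e-09). Thbs1 read 47.2 and 41.6 FPKM in the Stat6-/- controls and 46.9 and 41.0 FPKM with IL-4 (difference -3.59, SE 0.33, adjusted p 4.56e-11). Nfkbiz read 21.2 and 43.0 FPKM in these controls and 19.2 and 35 FPKM with IL-4 (difference -2.84, SE 0.68, adjusted p 0.00312). None of these 4 genes was called in the Stat6-/- cells. Each genotype difference had the sign of the WT response, but it contains those WT values, and the genes were known for large WT responses. Of the 79 named genes that were called in WT, 69 had a called genotype difference, again a choice of genes that already used the WT values.

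A few called genes departed from this pattern in level or spread. Ccl7 read 1.07 and 63.9 FPKM in the Stat6-/- controls and 1.55 and 237 FPKM with IL-4, so the replicate 2 libraries stood far above the replicate 1 libraries with and without IL-4. Ccl2 had the same split, with 5.2 and 127 FPKM without and 7.6 and 323 FPKM with IL-4, and its genotype difference was not called (1.85, adjusted p 0.685). Gbp5 responded by 1.35 in Stat6-/- (unadjusted p 0.0289) and by 1.26 in WT, and the genotype difference was -0.09 (SE 0.73, adjusted p 0.979). Cxcl10 responded by 1.1 in Stat6-/- cells (unadjusted p 0.125) against -2.04 in WT. Il4ra read 24.6 and 40.5 FPKM in the Stat6-/- controls and 31 and 67 FPKM with IL-4, with both replicates higher with IL-4, and its genotype difference was not called (1.07, adjusted p 0.0943). When the replicate number was kept as a block, the difference was also called for Il4ra (1.07), Bhlhe40 (1.38), Ccl7 (4.34), Cd14 (-1.49), Cx3cr1 (-1.52), Il1b (-2.18) and Slc40a1 (-2.20), which brought the count to 76 of 79. These added calls rest on the assumed pairing of the Stat6-/- samples by replicate number. The cause of the spread between the Stat6-/- replicates was not tested.

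**Figure D5:**
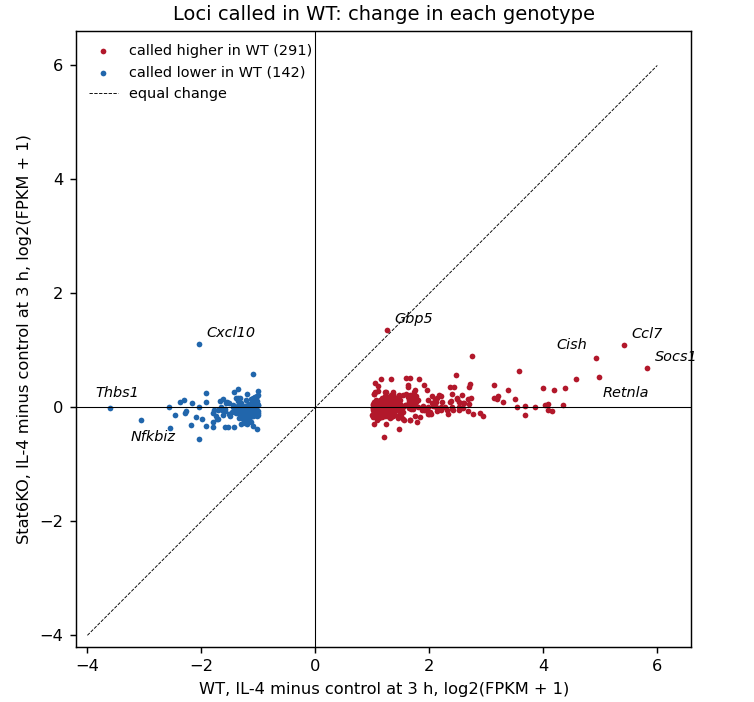
Log2 response to IL-4 at 3 h in Stat6-/- macrophages (vertical axis, 2 libraries per group) against that in WT macrophages (horizontal axis, 4 libraries per group) for the 433 loci called in WT. WT values lie beyond 1 or -1 by the choice of loci, while the Stat6-/- values lie around 0 with medians of 0.03 for the higher and -0.05 for the lower loci and 3 loci (Ccl7, Gbp5 and Cxcl10) beyond 1.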

How the data were processed

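RNA of BMDMs was sequenced after poly(A) selection with an unstranded kit, so reads of overlapping and antisense loci cannot be told apart. The authors mapped reads to mm10 and deposited FPKM values, 1 table per sample. The submitters' processing notes name TopHat2 2.0.7 and Cufflinks 2.0.2, and the gene annotation is not given in the sources used here. FPKM keeps no absolute depth, and relative depth was estimated from the spacing of low values.

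Groups were taken from the sample labels. Values under 1e-05 FPKM (5053 of them) were set to 0. The 11146 loci that reached 1 FPKM in any of the 53 samples were fitted as log2(FPKM + 1) with limma 3.58.1 in R 4.3.3 (a mean per group, 18 groups, 35 residual degrees of freedom, empirical Bayes with an intensity trend, two-sided, Benjamini-Hochberg adjustment). A locus was called at an adjusted p under 0.05 with an absolute log2 difference of at least 1. Differences between genotypes or times were contrasts of the same fit. Adjusted p and SE in the text come from limma unless another test is named, and folds are ratios of mean FPKM. The fit and the depth estimate were tested on simulated data.

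Named genes were the 4 markers given for the comparison, the 12 largest increases and decreases without overlap between groups and with at least 5 FPKM in the higher group, up to 4 called genes of each gene list (or its 2 highest genes where fewer than 2 were called), the genes with the largest differences to 1 h and 6 h, and Stat6. Other genes named, such as Mrc1, Cd86, Bcar3, Fyn and the neighbouring pairs, were chosen after their values were seen. The members and all lists were chosen with earlier results of these data known. WT samples of the same replicate number deviated together at 3 h (correlations of deviations from the group means 0.479, 0.316, 0.345 and 0.370), and the study describes individual animals. The numbers were therefore taken to pair the WT samples, but only in the fits with the replicate block. The block fit of all samples paired the Stat6-/- samples by number as well. SE and adjusted p given without mention of the block are from the unpaired fit and include the spread shared within replicate numbers. For Stat6-/- samples no source used here ties the numbers to animals, and p-values measure the spread between these samples only. Block results for Stat6-/- cells and for genotype differences therefore rest on an assumed pairing. Alternatives changed the pseudocount, the filter, the scaling, the samples fitted, the replicate block and single libraries. An analysis of variance with a mean per group, without the 0 h groups, was also tried, with Tukey's test and no adjustment over loci. It differs from the study's own approach, a two-way ANOVA followed by Tukey's test. Alternative counts of 1 h calls by span were added after seeing the data. Sequences are from RefSeq (GRCm38.p6).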

Additional observations from a re-analysis of the deposited data

Results flagged for a closer look

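In 8 of the 186 groups of 4 WT libraries examined among the named and marker genes (4.3%, where chance gives about 1 in 20), 1 library lay far from the other 3. Replicate 2 with IL-4 read 40.4 FPKM for Batf3 (others 54.3 to 56.8), 13.3 FPKM for Klf4 (others 15.6 to 15.8) and 25.4 FPKM for Ptgs1 (others 28.8 to 29.4). Replicate 4 with IL-4 read 0.294 FPKM for Id3 (others 0.127 to 0.141). Control replicate 4 read 6.91 FPKM for Egr2 (others 3.64 to 4.05), 6.58 FPKM for Itgax (others 4.18 to 4.53) and 7.58 FPKM for Cd4 (others 4.55 to 4.76), and control replicate 3 read 0.0449 FPKM for Mcpt8 (others 0.226 to 0.249). No call of these genes changed without that library.

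The response at 3 h differed from that of Stat6-/- cells at 388 loci, from that at 1 h at 180 loci and from that at 6 h at 50 loci. WT minus Stat6-/- was 5.13 for Socs1, 4.46 for Retnla, -3.59 for Thbs1 and -2.84 for Nfkbiz on the log2 scale. From 1 h to 3 h the response moved by 4.49 for Retnla, 3.09 for Il4i1, 2.90 for Pdcd1lg2, 2.72 for St7, -3.13 for Thbs1, -1.79 for Arhgap22, -1.62 for Gpr162 and -1.58 for Tlr2. From 3 h to 6 h it moved by 3.11 for Retnla, 1.91 for Arg1, 1.78 for Mgl2, 1.74 for Flt1, -1.77 for Cd14, -1.36 for Tes, -1.24 for Ldlrad3 and -1.19 for Fcrl1.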

How the results depend on the processing

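With a pseudocount of 0.1, the number of lower loci at 3 h was 254 (142 in the reported analysis), the negative differences to 1 h were 104 (60) and those between 6 h and 3 h were 49 (24). The same pseudocount gave 2 loci between the controls at 3 h and 0 h (Thbs1 and Nr4a2), as did the replicate block (Thbs1 and Il1b), against 1. The replicate block gave 1 call in Stat6-/- cells (Gbp5) against 0, and for the named genes it changed no call other than the 7 genotype differences given above. Counts of higher and lower loci at 3 h were 296 and 149 with the block, 278 and 161 with quantile normalization, 277 and 127 by Tukey's test, and 284 to 295 and 133 to 150 without single libraries. All 94 named genes kept their call under both other pseudocounts, both other scalings, the block and fits of WT or the 8 libraries alone. Without a filter Ccl2 and Slc40a1 lost theirs (adjusted p 0.0661 and 0.0584). At a pseudocount of 0.1 the 6 h minus 3 h differences of Retnla, Mgl2 and Ldlrad3 were lost (adjusted p 0.336, 0.173 and 0.0605), and of the higher loci over and up to 100 kb 3 (4.69%) and 109 (48.0%) were called at 1 h. The causes were not tested. Depth is known only relatively, so counting error at low FPKM could not be given.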
